A study of Mus musculus with 4 samples.

Results

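The transcripts described here encode the enzymes that turn prohormones and other secreted precursors into their active forms, together with 1 inhibitor. They were taken by gene symbol from the deposited count table and comprise the carboxypeptidases *Cpe* and *Cpd*, the amidating enzyme *Pam*, the proprotein convertases *Furin*, *Pcsk1*, *Pcsk2*, *Pcsk5*, *Pcsk6* and *Pcsk7*, and the convertase inhibitor *Pcsk1n*. All 10 symbols were found among the 52550 genes of the table. The set was put together with RIP and input values of these libraries in view, so that the values of its members are given as a description, and where one passed the limits of the fit over all genes, this is a label and no test of that member. *Cpe* and *Cpd* are also on the study's list of potential targets, which was drawn from these libraries together with protein levels after knockdown and is not independent evidence of their direction.

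The libraries came from retinas of wild type C57BL/6 mice at postnatal day 0 (P0), dissociated with papain. RNA was immunoprecipitated with an antibody against YTHDF2 (RIP) or taken before the pulldown (input), in 2 biological replicates each. How many animals gave each replicate is not given in the sources used here, and the pulldown with control IgG that the methods mention was not analysed here. Enrichment in the RIP is therefore always a level relative to input and not relative to an unspecific pulldown.

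Most secreted peptides and many growth factors and receptors are made as inactive precursors. Convertases cut them after basic residues in the Golgi or in secretory granules, carboxypeptidases remove the basic residues left at the new end, and in many neuropeptides the amidating enzyme then converts a terminal glycine into an amide. YTHDF2 is a cytoplasmic protein that binds mRNA carrying N6-methyladenosine (m6A), a mark laid down in short sequence contexts of which GGACT, with U for T in RNA, is among the most frequent.

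The letters GGACT were looked up in the sense strand of the longest protein-coding transcript of each gene in GENCODE M21 (GRCm38). They show where such contexts lie in the carboxypeptidase transcripts, of which *Cpe* was called enriched in the RIP below and *Cpd* was not. *Cpe* has 2 GGACT, both in coding exons, and *Cpd* has 9, of which 5 are in coding exons and 4 in the 3′ UTR. The coding ones are printed with the motif in capitals and 10 bases on either side, 5′ to 3′ on the transcript. Methylation was not measured in these libraries, so that a match marks letters and no m6A site.
Cpe, chr8:64617687-64617691, minus strand: gcgagctgaaGGACTggtttgtggg
Cpe, chr8:64593215-64593219, minus strand: ctgttggggtGGACTttgagcttga
Cpd, chr11:76840549-76840553, minus strand: taagaccactGGACTctatagcaaa
Cpd, chr11:76801768-76801772, minus strand: gtggtatgcaGGACTggaactattt
Cpd, chr11:76797617-76797621, minus strand: gttcctgagaGGACTtgtaatgaac
Cpd, chr11:76792857-76792861, minus strand: ttggttgacaGGACTagaattgtga
Cpd, chr11:76791936-76791940, minus strand: ttcaaaagcaGGACTtcagtctttc

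Of the tested protein-coding transcripts, 93.1% hold at least 1 GGACT. Each of the 10 processing transcripts does too, from 1 in *Pcsk1n* to 12 in *Pcsk5*. Per kilobase, *Pcsk6* (1.82) and *Pcsk5* (1.67) were the richest, *Cpd* (1.13) and *Cpe* (0.945) lay near the median of 1.04 over tested protein-coding transcripts, and *Pcsk2* (0.423), *Pcsk1n* (0.456) and *Pam* (0.488) were the poorest.

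Total counts were between 36236531 and 39499994 in the inputs and between 19530226 and 24903212 in the RIP libraries. Mitochondrial genes took 18.6% and 19.4% of the input counts and 0.578% and 0.522% of the RIP counts, and the part of this difference in the results below was not tested. The 2 most abundant genes took 55.0% to 55.5% of the input counts and 85.3% to 87.8% of the RIP counts. CPM values below are counts relative to library size, scaled with TMM factors, so that a change in the RIP is relative to the bulk of tested transcripts. The retinal label was met by markers of progenitors, whose 8 transcripts summed to 590 and 926 CPM in the inputs. Markers of photoreceptor precursors reached 96.1 and 105 CPM, those of amacrine and horizontal cells 74.2 and 118 CPM, and those of ganglion cells 46.6 and 57.5 CPM. Markers of tissues next to the retina were near 0 in the inputs. Lens markers summed to 0.570 and 0.612 CPM with *Cryaa*, *Cryba2*, *Crybb1*, *Cryga* and *Crygs* at 0, and pigment epithelium markers to 0.204 and 0.630 CPM with *Rpe65*, *Tyr*, *Tyrp1* and *Pmel* at 0. Microglia markers were at 1.89 to 3.33 CPM, vessel markers at 3.47 to 5.22 CPM, astrocyte markers at 2.04 to 2.86 CPM with *Aqp4* at 0, and blood markers at 0.758 to 0.990 CPM with *Hbb-bt* at 0.

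In P0 retina before the pulldown, *Cpe* was the most abundant of the processing transcripts. Per length, on the FPKM scale deposited by the authors, its input level was 4.39 ± 0.454 FPKM (SD, n = 2). *Furin* followed at 1.33 ± 0.125 FPKM, then *Pcsk1n* at 0.685 ± 0.0848 and *Pcsk7* at 0.509 ± 0.0377. *Cpd* stood at 0.456 ± 0.239 FPKM and *Pam* at 0.400 ± 0.0870. The range of *Cpd* over the inputs, from 0.287 to 0.625 FPKM, overlapped those of its neighbours *Pcsk7* and *Pam*. It also just reached the lower input of *Pcsk1n*, so that the place of *Cpd* among these genes was not beyond its spread. The ranges of *Pcsk7* and *Pam* did not overlap each other. *Pcsk2* (0.0858 ± 0.0199 FPKM), *Pcsk5* (0.0745 ± 0.000181) and *Pcsk6* (0.0615 ± 0.0411) formed a group of weak transcripts whose neighbours also overlapped. *Pcsk1* closed the list with 0 counts in all 4 libraries. A count of 0 allows up to 3 counts, or 0.0900 and 0.0874 CPM in the inputs and 0.119 and 0.125 CPM in the RIP libraries. In whole tissue, fewer cells of a type and less RNA per cell cannot be told apart.

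Dividing CPM by annotated transcript length in place of the deposited FPKM left 7 of the 10 genes at their place. *Pam* moved from place 6 to place 3, *Pcsk1n* from 3 to 5 and *Cpd* from 5 to 6. Among the 14399 protein-coding genes above 0 FPKM in the inputs, *Cpe* was higher than 92.7% and *Furin* higher than 76.7%, while *Pcsk2*, *Pcsk5* and *Pcsk6* were higher than 19.8%, 18.4% and 16.7%.

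**Figure D1:**
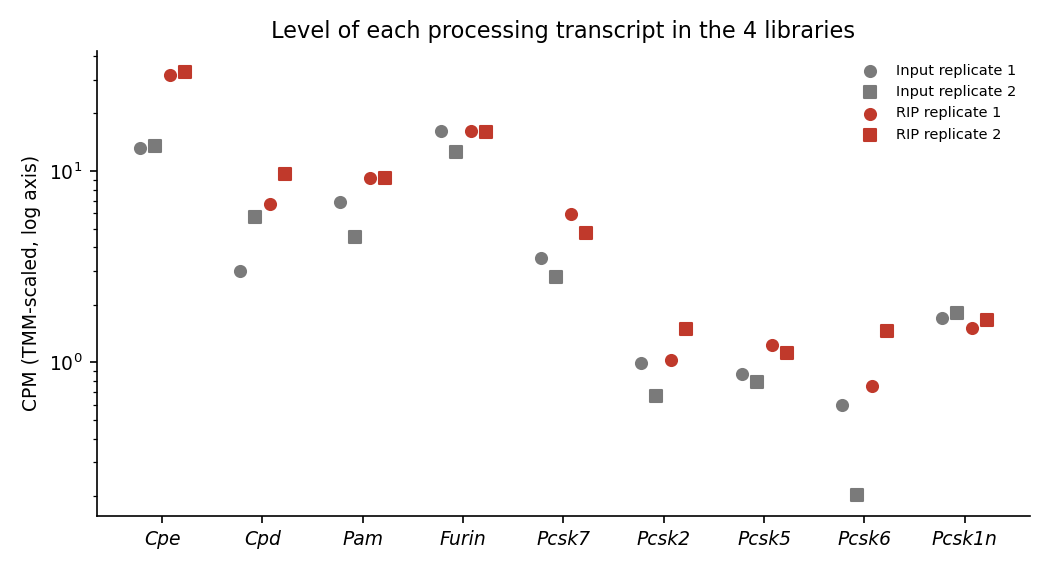
TMM-scaled CPM (log axis) of 9 processing transcripts in each library, grey for input and red for RIP, circles for replicate 1 and squares for replicate 2. Both RIP values of Cpe, 31.8 and 33.0 CPM, lie far above its inputs at 13.2 and 13.5 CPM, while Furin stays between 12.5 and 16.2 CPM, and Pcsk1, at 0 in every library, is not drawn.

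The comparison of RIP with input asks which transcripts YTHDF2 holds in the newborn retina. Of the processing transcripts, *Cpe* was the one enriched at the limits used here, with a fold of 2.43 between the means, and *Furin* was at a fold of 1.12. Calls needed an unadjusted p below 0.05 in edgeR's quasi-likelihood test over all genes, together with a log2 fold change of 1 or more (enriched) or of -1 or less (depleted). Of 10 members, 9 passed the filter on low counts. Among these 9, 1 was called enriched, where 9.43% of all 13632 tested transcripts were, and 0 were called depleted, where 17.2% of all were. With the adjusted p in place of the unadjusted one the members' counts were again 1 and 0, where 3.48% and 9.78% of all were called. Since the set was chosen on this contrast, nothing is read from these shares. The log2 fold changes of the 9 ran from -0.15 to 1.45 with a median of 0.68, beside a median of -0.05 over all tested transcripts.

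*Cpe* encodes carboxypeptidase E, which trims basic residues from peptide intermediates in secretory granules. The gene spans chr8:64592542-64693054 (GRCm38, minus strand) and has 1 annotated protein-coding transcript. Replicates 1 and 2 gave 440 and 463 counts before the pulldown and 803 and 793 after it. These are 13.2 and 13.5 CPM in the inputs and 31.8 and 33.0 CPM in the RIP libraries. The RIP libraries were high in both replicates and the inputs were low in both, with no overlap and little spread within a group. The log2 fold change was 1.28 (SE 0.327), and the ratios taken within replicates were 1.27 and 1.29. Over the 15 other fits, on the same 4 libraries or with 1 of them left out, its log2 fold change was between 1.21 and 1.76.

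*Cpd* encodes carboxypeptidase D, a membrane enzyme of the trans-Golgi network with a broader range of substrates. It spans chr11:76778424-76847018, also on the minus strand. Its counts were 100 and 197 in the inputs, against 169 and 232 after RIP, or 3.0 and 5.74 CPM against 6.70 and 9.65 CPM. Replicate 1 was the lower one in both groups, and the higher input (5.74) came close to the lower RIP library (6.70) without overlap. The log2 fold change of 0.90 (SE 0.436) passed neither the fold nor the p limit. Leaving out input replicate 2 gave 1.44 and leaving out input replicate 1 gave 0.51.

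*Pam* encodes the bifunctional enzyme that amidates peptides at their C-terminal end. Its counts of 231 and 156 in the inputs, against 232 and 220 after RIP, gave 6.93 and 4.55 CPM against 9.20 and 9.15 CPM. Both RIP libraries were above both inputs, with the inputs further apart than the RIP libraries. The log2 fold change was 0.68 (SE 0.370), with ratios of 0.41 in replicate 1 and 1.01 in replicate 2. Leaving out input replicate 1 gave 1.01 and leaving out input replicate 2 gave 0.40. The span of the gene holds the processed pseudogene *Gm3531* on the same strand. *Gm3531* had 71 and 51 counts in the inputs, against 3 and 2 after RIP. Whether it lies on an exon of *Pam*, so that reads could have been split between them, was not tested.

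*Furin* encodes the convertase of the trans-Golgi network that cuts many growth factor and receptor precursors. It had 541 and 430 counts in the inputs, against 408 and 387 after RIP, or 16.2 and 12.5 CPM against 16.2 and 16.1 CPM. Input replicate 1 was level with the RIP libraries, so that the groups overlapped. The log2 fold change of *Furin* was 0.17 (SE 0.334). Its sign turned to -0.41 in a fit that took a trend on transcript length and GC content out of the fold changes, and to -0.016 without input replicate 2.

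*Pcsk7*, a widely expressed convertase of the trans-Golgi network, had 117 and 96 counts in the inputs, against 151 and 114 after RIP. This amounted to 3.51 and 2.80 CPM against 5.99 and 4.74 CPM, with both RIP libraries above both inputs. The log2 fold change was 0.77 (SE 0.385), with ratios of 0.77 and 0.76 within the replicates. Part of *Pcsk7* is overlapped by *Rnf214* on the opposite strand, which had 186 to 274 counts. The library kit keeps the strand, but the strand setting of the counting is not given in the sources used here.

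The granule convertase *Pcsk2*, which acts on neuropeptide precursors, had 33 and 23 counts in the inputs, against 26 and 36 after RIP. On the CPM scale these were 0.990 and 0.670 against 1.03 and 1.5, the lower RIP library being level with the higher input. Its ratio was 0.06 in replicate 1 and 1.16 in replicate 2, around a log2 fold change of 0.60 (SE 0.572). *Pcsk5*, whose product cuts growth factor precursors, had from 27 to 31 counts in every library and a log2 fold change of 0.50 (SE 0.551), which turned to -0.17 in the fit with a trend on length and GC content. *Pcsk6*, the convertase also called PACE4, had 20 and 7 counts in the inputs, against 19 and 35 after RIP. Its log2 fold change of 1.45 (SE 0.761) was the highest of the 9 and the least certain, with a ratio of 0.33 in replicate 1 and 2.83 in replicate 2. Leaving out input replicate 1 gave 2.41 and leaving out input replicate 2 gave 0.87. *Pcsk1* could not be compared, since it had no count in any library.

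*Pcsk1n* encodes proSAAS, an inhibitor of the convertase made by *Pcsk1*. It had 57 and 62 counts in the inputs, against 38 and 40 after RIP, or 1.71 and 1.81 CPM against 1.51 and 1.66 CPM. It was the one member with both RIP libraries below both inputs on the CPM scale, while on the FPKM scale the groups overlapped. The log2 fold change of -0.15 (SE 0.452) changed sign with library size alone, at 0.17, and stayed within its standard error of 0 in both. Both RIP libraries lay above both inputs in *Cpe*, *Cpd*, *Pam*, *Pcsk2*, *Pcsk5*, *Pcsk6* and *Pcsk7*, 7 of the 9, where 29.6% of all tested transcripts did. The reverse held for *Pcsk1n* alone, beside 31.3% of all tested transcripts. In *Pcsk2* the gap was as small as 1.03 against 0.990 CPM. Since the set was chosen on this contrast, nothing is read from these shares either.

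**Figure D2:**
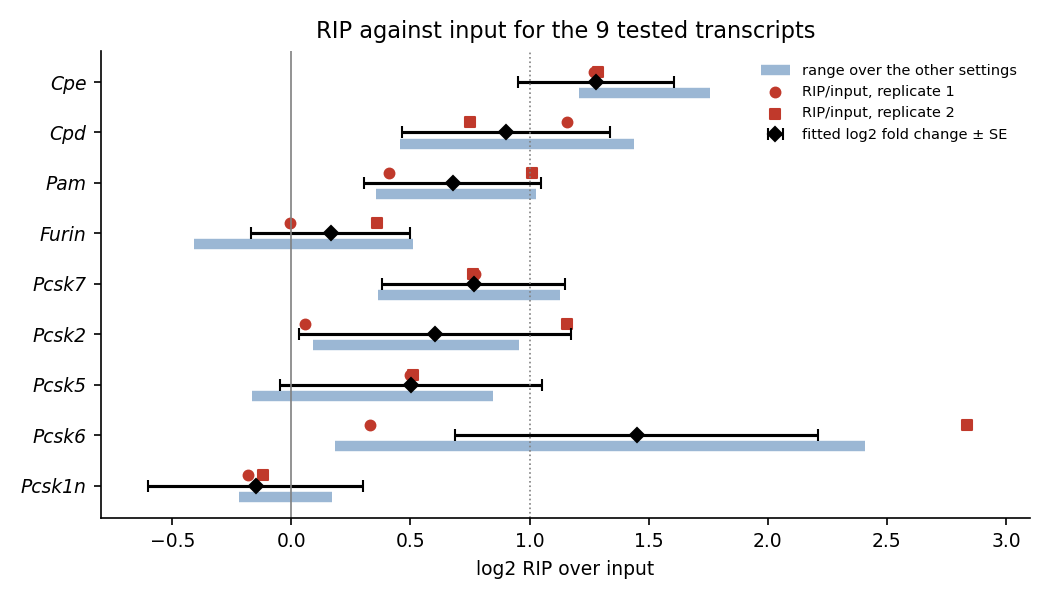
Log2 RIP over input for the 9 tested processing transcripts. Black diamonds with bars are the fitted log2 fold change ± SE, red symbols the ratios within replicates 1 (circle) and 2 (square), blue bars the range over the other fits, and the dotted line the limit of 1. The blue bar of Cpe, from 1.21 to 1.76, stays past the limit, while that of Furin runs from -0.41 to 0.51.

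Ratios between genes within a library do not depend on how libraries are scaled. For each count on *Furin* there were 0.813 and 1.08 counts on *Cpe* in input replicates 1 and 2, and 1.97 and 2.05 in the RIP libraries. *Cpe* thus took 28.1% (95% Clopper-Pearson interval 25.8 to 30.4) and 31.7% (29.3 to 34.1) of the counts on the 10 genes in the inputs, and 42.8% (40.5 to 45.1) and 42.1% (39.8 to 44.4) in the RIP libraries. The share of *Furin* moved the other way, from 34.5% and 29.4% in the inputs to 21.7% and 20.5% in the RIP libraries. *Pcsk1n* went from 3.64% and 4.24% to 2.02% and 2.12%. The share of *Cpd* did not separate the groups, with 6.38% and 13.5% in the inputs, against 9.0% and 12.3% after RIP. Summed over enzymes, the carboxypeptidases had 0.730 and 1.13 times the CPM of the convertases in the inputs and 1.53 and 1.71 times in the RIP libraries. CPM is not scaled for transcript length, so that these ratios compare libraries and do not rank the levels of the enzymes. *Cpe* made up the larger part of the carboxypeptidase sum in every library. The Clopper-Pearson intervals cover counting error only.

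**Figure D3:**
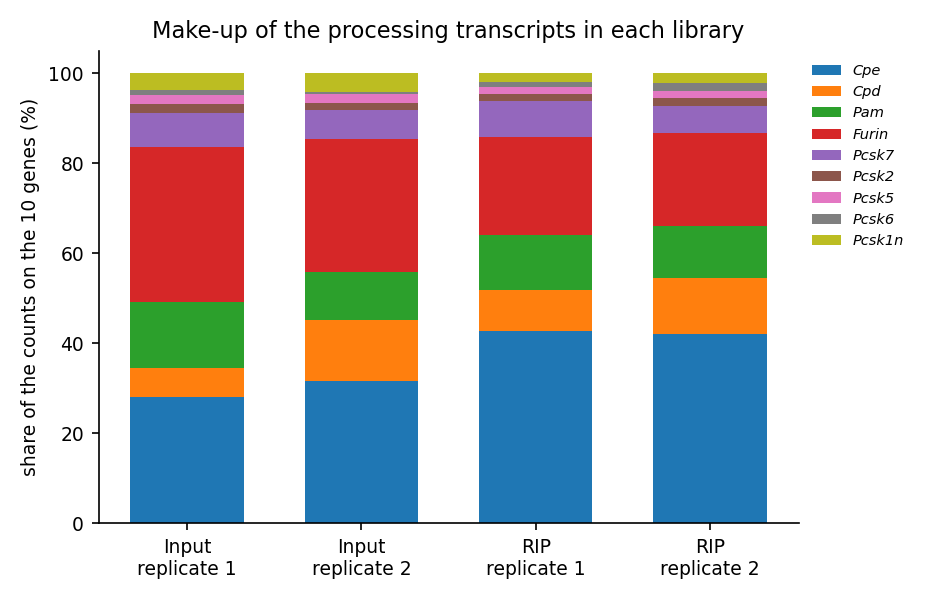
Share (%) of the counts on the 10 processing genes taken by each gene, 1 bar per library. The lowest segment, Cpe, grows from 28.1% and 31.7% in the inputs to 42.8% and 42.1% in the RIP libraries. The red segment, Furin, is at 21.7% and 20.5% in the RIP libraries. The segments of a bar add up to a fixed whole, so that growth of 1 segment by itself lowers the others.

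Fold changes in these libraries went with transcript length, and *Cpe* is a short transcript. With tested protein-coding transcripts divided into 4 length classes of like size, the median log2 fold change was -0.84 in the shortest class (204 to 2129 nt), -0.05 and 0.28 in the next ones and 0.51 in the longest (from 4901 nt). *Cpe*, with 2117 nt, falls into the shortest class, of which 1.94% was called enriched, but close to its upper edge. In the next class, from 2130 to 3339 nt, 6.29% was called enriched. *Pcsk1n* (2193 nt), in that next class, is of nearly the same length as *Cpe* and was at -0.15. *Cpd* is the longest of the set with 7946 nt, of which 3763 nt are 3′ UTR, and its 0.90 lies in the class of which 20.2% was called enriched. *Furin* (4332 nt), *Pcsk6* (4405 nt), *Pcsk2* (4723 nt), *Pam* (4102 nt) and *Pcsk7* (3876 nt) share the third class, with log2 fold changes between 0.17 and 1.45. With the trend on length and GC content taken out, *Cpe* was at 1.71, *Cpd* at 0.50, *Pcsk7* at 0.36 and *Furin* at -0.41. In base composition the set ranged from 40.6% GC in *Pcsk1* to 58.3% in *Furin*, around the median of 50.2% of tested protein-coding transcripts, and *Cpe* (49.7%) and *Pam* (49.9%) were close to that median.

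**Figure D4:**
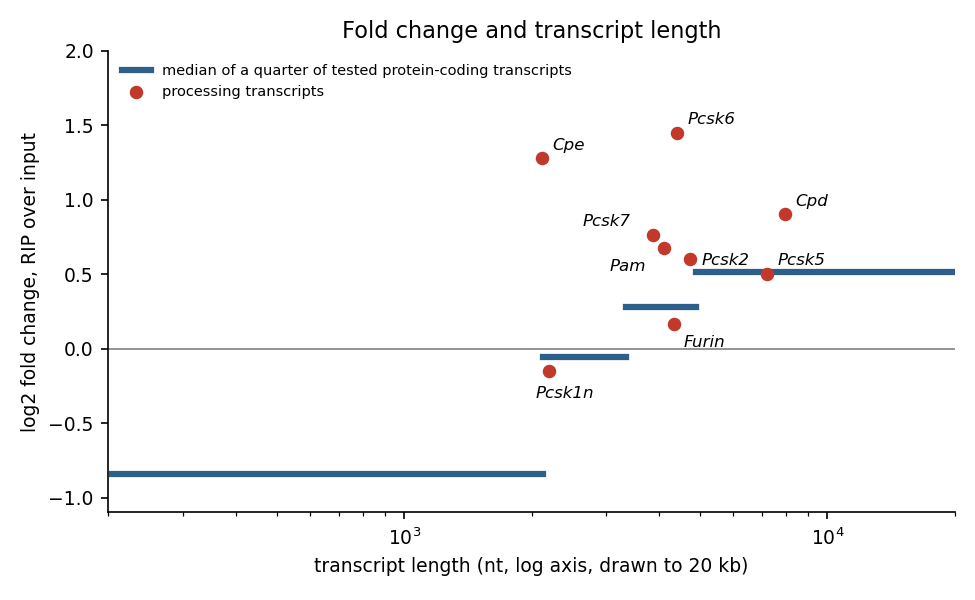
Log2 fold change (RIP over input) against the length in nt (log axis) of the longest protein-coding transcript of the 9 tested processing genes, with blue lines for the median of each of 4 length classes of tested protein-coding transcripts. Cpe, at 2117 nt and 1.28, is near the upper edge of the shortest class. It lies above the median of -0.84 of that class and of -0.05 of the next. Furin lies a little under the median of its own class.

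The transcripts whose profile over the 4 libraries was nearest to that of *Cpe* were *Zcchc14*, *Crocc* and *Zfp740*, at a Euclidean distance of 0.0581, 0.0808 and 0.0981 in centred log2 CPM, out of 5010 candidates. *Zcchc14* had 381 and 382 counts in the inputs, against 693 and 665 after RIP. Among the 3 nearest to *Cpd* were *Hbp1* (0.0624) and *Jarid2* (0.149). *Hbp1* had 141 and 265 counts in the inputs, against 239 and 316 after RIP, a gap between the inputs like that of *Cpd*.

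The rest of the pathway was described with lists of other processing enzymes, proteins of dense core vesicles, neuropeptide precursors and convertase substrates. Among the transcripts with an adjusted p below 0.05 and past the fold limit, *Chgb*, *Scg5*, *Npy* and *Igf2* were lower in the RIP, and *Notch2*, *Lrp1* and *Insr* were higher. Of 13 other processing enzymes, 7 were tested, and 0 were called in either direction. Of all tested transcripts, 9.43% were called enriched and 17.2% depleted. The median log2 fold change of the 7 was -0.53. *Ctsl*, the protease cathepsin L and per length (FPKM) the most abundant of these enzymes in the inputs, was at -0.59 (adjusted p = 0.269). *Mbtps1*, the site-1 protease of the convertase family, which was picked after its values were seen, had 616 and 373 counts in the inputs, against 734 and 707 after RIP. Its log2 fold change of 0.99 (adjusted p = 0.116) missed the limit, and it was called enriched with the replicate block, at 1.04. All adjusted p-values are from edgeR's quasi-likelihood test with Benjamini-Hochberg adjustment over the tested genes.

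Of the 16 dense core vesicle transcripts, 16 were tested, and 2 of them (12.5%, beside 9.43% of all tested transcripts) rose and 2 (12.5%, beside 17.2%) fell, with a median of -0.16. The granins and relatives *Chga*, *Scg2*, *Scg3* and *Vgf*, named after their values were seen, were not called, at -0.57, -0.58, -0.19 and 0.39. *Chgb* encodes the granin chromogranin B and had the highest mean input FPKM of the 16, 6.07 beside 5.92 for *Scg5*. In input replicate 1 *Scg5* was the higher, at 6.26 against 2.95 FPKM. *Chgb* had 336 and 951 counts in the inputs, against 81 and 77 after RIP. The inputs were far apart, yet both were well above the RIP libraries, and *Chgb* fell by 2.56 on the log2 scale (SE 0.509, adjusted p = 0.0149). *Scg5*, the chaperone 7B2 of the convertase made by *Pcsk2*, had 407 and 332 counts in the inputs, against 109 and 95 after RIP. It fell by 1.40 (SE 0.357, adjusted p = 0.0361) and was at -0.05 in the fit with a trend on length and GC content, its transcript being 1208 nt long. *Cadps2*, a priming factor of dense core vesicles, was called at 1.62 (adjusted p = 0.141) on 9 to 37 counts, and *Syt4*, a vesicle synaptotagmin, at 1.04 (adjusted p = 0.128). Both calls rested on the unadjusted p, and 0 of the 16 were called enriched without input replicate 1, RIP replicate 1 or RIP replicate 2. *Scg5* was no longer called without either RIP library, at -1.36 and -1.24. Markers of ganglion cells were also lower, from 46.6 and 57.5 CPM in the inputs to 27.4 and 28.1 CPM in the RIP libraries. Of these, 1 of 8 was called depleted, beside 17.2% of all tested transcripts, and 0 were at 0. Those of amacrine and horizontal cells went from 74.2 and 118 CPM to 61.1 and 56.4 CPM, with 2 of 7 called depleted and 0 at 0. Progenitor markers were at 926 and 590 CPM in the inputs and 615 and 595 CPM after RIP, with 2 of 8 called depleted. Photoreceptor markers went the other way, from 105 and 96.1 CPM to 127 and 142 CPM, with 0 called. Over all tested transcripts 9.43% were called enriched and 17.2% depleted, and nothing is read from the few marker calls. The part of these cells in the result was not tested.

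Of 34 neuropeptide precursors, 15 had 0 counts in all libraries and 2 passed the filter. *Npy*, the precursor of neuropeptide Y, had 128 and 127 counts in the inputs, against 26 and 15 after RIP. It fell by 2.18 (SE 0.461, adjusted p = 0.0186). *Penk*, the precursor of enkephalins, had 58 and 36 counts in the inputs, against 7 and 15 after RIP and fell by 1.62 (SE 0.669, adjusted p = 0.146, called by the unadjusted p). *Penk* was not called with library size alone, DESeq2 or log2(FPKM + 1), nor without input replicate 1 or RIP replicate 1. With at least 10 counts required in every library *Penk* was not tested, its RIP replicate 1 having 7. These are short transcripts of 566 and 1449 nt, and with the trend on length and GC content taken out *Npy* was at 0.39 and *Penk* at -0.76, neither of them called.

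Of 32 convertase substrates, 24 were tested. There were 7 that rose, or 29.2% beside 9.43% of all tested transcripts, and 2 that fell, or 8.33% beside 17.2%. The median was 0.90. *Notch2*, a receptor whose ectodomain furin cuts, rose by 1.66 (SE 0.340, adjusted p = 0.0165), from 216 and 179 counts in the inputs to 471 and 440 in the RIP libraries. *Lrp1*, a large endocytic receptor, rose by 1.58 (SE 0.360, adjusted p = 0.0247), from 690 and 475 counts to 1343 and 1196. *Met*, the hepatocyte growth factor receptor, rose by 1.71 (SE 0.547, adjusted p = 0.0746, called by the unadjusted p). The others that rose, *Insr*, *Notch3*, *Itga3* and *Fbn2*, were between 1.09 and 1.34. *Igf2*, a growth factor that convertases trim, fell by 2.01 (SE 0.341, adjusted p = 0.00758), from 1143 and 1389 counts to 240 and 217, and *Bmp7* fell by 1.47 (adjusted p = 0.154, called by the unadjusted p). The tested substrates are long, with a median of 5532.5 nt over the 24 and 14 of them in the longest class. With the trend on length and GC content taken out, *Met* was the 1 substrate still called enriched, by the unadjusted p (adjusted p = 0.200). *Notch2* was at 0.93 in that fit and missed the fold limit. The number that rose was 3 without RIP replicate 1, 4 without RIP replicate 2 and 11 without input replicate 2. *Insr*, *Notch3*, *Itga3*, *Fbn2* and *Bmp7* were named after their values were seen.

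**Figure D5:**
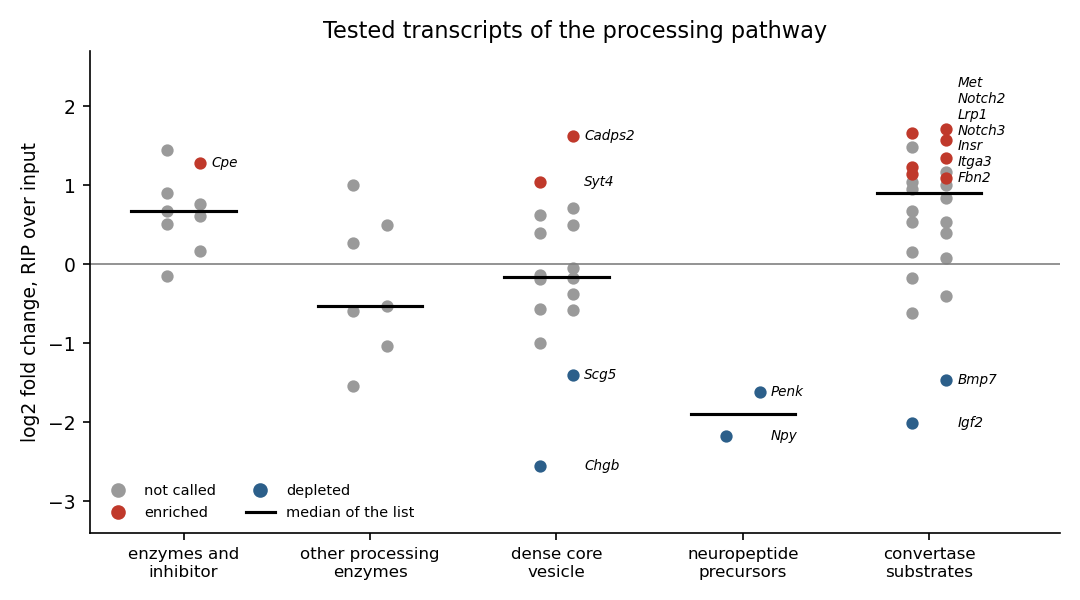
Log2 fold change (RIP over input) of each tested transcript in the set of processing enzymes and inhibitor and in the 4 lists, red where called enriched, blue where called depleted, with a black line at the median of each list. Chgb at -2.56 and Npy at -2.18 lie lowest, and the convertase substrates reach from -2.01 for Igf2 to 1.71 for Met.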

How the data were processed

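RNA from anti-YTHDF2 RIP and input of P0 mouse retina was sequenced in 2 replicates each. The authors deposited counts per gene, not normalized, and FPKM values scaled for gene length and library size by the authors. The labels name STAR 2.5, HTSeq and GRCm38, and settings and annotation release are not given in the sources used here. Genes with 3, 5 or 7 counts were more frequent than those with 2, 4 or 6 in every library (1165 genes at 3 against 844 at 2 in input replicate 1), and why is not given in the sources used here. Intervals that take counts as single reads may thus be too narrow.

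Low counts were removed by filterByExpr (minimum count 10), and TMM factors and the quasi-likelihood functions glmQLFit and glmQLFTest of edgeR 4.0.16 (R 4.3.3) were used. The SE is the absolute log2 fold change over the square root of F. With 2 against 2 libraries, p-values lean on the spread shared across genes. GENCODE M21 (GRCm38) gave positions, lengths and sequences, and 52403 of 52550 gene identifiers matched it. The design text gives each replicate an input and a pulldown, which ties equal numbers. The differences between replicates of inputs and of RIP libraries had a Pearson r of -0.03 over the 13632 tested genes, and the main fit had no block, the methods stating none.

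The members, the lists and the tests were chosen with earlier results of these data known. Named were all members, and per list up to 4 called genes by size of change and the one with the highest input FPKM, and for *Cpe* and *Cpd* the 3 nearest profiles among genes of at least 5 CPM. One of these profiles is not reported here. Alternatives were DESeq2 1.42.0, other scalings and filters, limma 3.58.1 on FPKM values with 0.1 or 1 added before taking log2, from a mean of 0.1 FPKM, the replicate block, adjusted p, a smooth trend on transcript length and GC content entered as an offset (mgcv 1.9.3), and each library left out. All fits were run on simulated data in which RIP and input differed, apart from library size, in a chosen group of genes alone. The simulation had neither the difference in composition nor the length trend of the real libraries, and its outcome is not given here. Protein sequences were not used here.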

Additional observations from a re-analysis of the deposited data

How the results depend on the processing

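Of 134 refitted log2 fold changes of members, 115 kept their direction and their side of the limits, 8 came to pass them and 11 changed sign. Library size alone moved the median of all tested transcripts from -0.05 to 0.27 and gave 2357 enriched and 1725 depleted transcripts in place of 1286 and 2344. The trend on length and GC content gave 1407 and 1144 (1588 and 1132 with the replicate block), log2(FPKM + 0.1) 1797 and 2140 and log2(FPKM + 1) 386 and 1055. Except where a construction shows it (fewer genes or libraries, a larger pseudocount), the cause was not tested. Low counts limit *Pcsk2*, *Pcsk5* and *Pcsk6* most.

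With library size alone, 5 members were enriched in place of 1 (*Cpe*, *Cpd*, *Pam*, *Pcsk6* and *Pcsk7*), and on log2(FPKM + 0.1) 2 (*Cpe* and *Cpd*). Leaving out 1 library gave 1 to 3, with 3 without input replicate 1 (*Cpe*, *Pam* and *Pcsk6*). Members called depleted stayed at 0. With the replicate block 1 member was enriched, and the block moved 1 count by over 1.5 times, that of other processing enzymes, from 0 to 1 enriched. *Furin* was at -0.41 with the trend on length and GC content, -0.38 with that trend and the replicate block and -0.016 without input replicate 2 (-0.016 to 0.36 with 1 library left out), and *Pcsk5* at -0.17 with the trend, with or without the block. *Pcsk1n* was at 0.17 with library size alone, 0.10 on log2(FPKM + 0.1), 0.049 on log2(FPKM + 1), 0.0057 with the trend, 0.039 with the trend and block and 0.013 without RIP replicate 1 (-0.19 to 0.013 with 1 library left out).

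Other processing enzymes had 1 enriched in place of 0 with library size alone, TMM on protein-coding genes, DESeq2, no filter on low counts, log2(FPKM + 0.1) and the block (0 to 1 with libraries left out), and 1 depleted in place of 0 with no filter (0 to 1). Dense core vesicle transcripts had 0 enriched in place of 2 with DESeq2, at least 10 counts in every library, log2(FPKM + 1) and adjusted p, and 1 on log2(FPKM + 0.1) and with the trend, with or without block (0 to 2), and 1 depleted in place of 2 on log2(FPKM + 1) and with the trend (1 to 3). Neuropeptide precursors had 1 enriched in place of 0 with no filter, and 1 depleted in place of 2 with adjusted p, log2(FPKM + 1), library size alone and a minimum of 10 counts in every library, and 0 with the trend, with or without block (2 to 3). With DESeq2 the 2 depleted were *Npy* and *Pnoc* in place of *Npy* and *Penk*. Convertase substrates had 11 enriched in place of 7 with library size alone, 2 on log2(FPKM + 1), 1 with the trend, 2 with trend and block and 3 by adjusted p (3 to 11), and 1 depleted in place of 2 with library size alone, DESeq2, at least 10 counts in every library, both FPKM scales and adjusted p (1 to 2).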
